A study of Mus musculus with 9 samples.

Results

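Oviducts of mice that carry 1 copy of the Dicer1 allele D1693N were compared with oviducts of wild-type mice, across all genes measured. The comparison uses 5 of the 9 libraries of the series: 3 labelled Dicer1+/D1693N (oviducts 1 to 3) and 2 labelled Dicer1+/+ (oviducts 4 and 5). The other 4 libraries are Dicer1ko/D1693N tumors and took no part in the test. The mice received no treatment, the tissue is labelled oviduct only, and the study's design text counts all 5 oviducts as controls. Animal age, cycle stage, strain background, batch and whether each library is a separate animal are not given in the sources used here. P-values therefore measure the spread between these 5 libraries, which may be technical.

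DICER1 cuts hairpin precursors into mature miRNAs with a pair of RNase III domains. The RNase IIIb domain frees the 5p strand and the RNase IIIa domain the 3p strand. D1693N replaces a metal-binding residue of the RNase IIIb domain, and the protein made from that allele keeps RNase IIIa activity. The heterozygous oviducts keep a normal allele beside it. The oviduct is lined by ciliated cells, which move gametes and embryos, and by secretory cells, which make the luminal fluid. Below the lining lie stroma, immune cells, vessels and smooth muscle.

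All 5 libraries carried the defining genes of this organ. Ovgp1, the main oviduct glycoprotein, held 78143.7, 89872.6 and 80637.5 normalized counts in oviducts 1 to 3 and 150619.1 and 82442.0 in oviducts 4 and 5. Foxj1, the regulator of motile cilia, held 4183.7 to 6649.9 in the heterozygous and 4705.2 and 6435.2 in the wild-type oviducts. Epcam, a surface protein of epithelial cells, held 2190.1 to 2699.6 and 3025.4 and 2477.4. The genotypes overlapped in each of these genes.

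The libraries held 8504993 to 12526078 counted reads, and a floor of 3 reads corresponds to at most 3.349 normalized counts. Across genes, library pairs correlated at 0.978 to 0.986 within the heterozygous oviducts, at 0.974 within the wild-type oviducts and at 0.968 to 0.977 between them (Pearson's r across genes, which are not independent replicates). The first principal component held 39.0% of the variance and separated the genotypes, with scores of -19.2, -19.3 and -26.4 against 22 and 43.0. The second held 30% and did not follow genotype: oviducts 1 and 4 lay at -21.7 and -34.4 and oviducts 2, 3 and 5 at 7.3, 23.3 and 25.5. The wild-type libraries lay farther apart than the heterozygous ones on both components.

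No gene passed the test. By limma on the 5 oviducts, 0 of 19435 genes (0%) had an adjusted p under 0.05 with a log2 difference of at least 1 in size. The smallest adjusted p was 0.0732. At an unadjusted p under 0.05 there were 2855 genes, 1423 higher (7.32% of all genes) and 1432 lower (7.37%) in the heterozygous oviducts. In 3167 genes (16.3%) all 3 heterozygous libraries lay above both wild-type libraries, and in 3060 genes (15.7%) all lay below. These 4 percentages are the background against which the gene groups below are read, and genes that stand apart in this way are called genes without overlap. For a single gene an exact two-sided rank test of 3 libraries against 2 cannot go below p = 0.2.

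Other fits called a few genes. With the tumors in the fit, so that 9 libraries share 1 estimate of spread, 4 genes passed (0.0206%): Ighg3 higher and Slc6a2, Dcpp2 and Wfdc18 lower. Limma-voom on the recovered reads called Cp higher and Wfdc18, Slc6a2 and Lgals1 lower. Restricting the test to 16577 genes with a mean of at least 10 normalized counts called Cp, Il18r1, Il17rb and Ighg3 higher and Slc6a2, Wfdc18, Lgals1 and Alpl lower. Without oviduct 1, Ighg3 and Wfdc18 passed. Every difference given below is therefore a measured value of these libraries, with no call behind it in the 5-library test.

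Dicer1 itself (chromosome 12, 104687742 to 104751952 of GRCm38, minus strand) was at similar levels. It held 1236.8, 1004.7 and 1145.3 normalized counts in the heterozygous oviducts and 903.9 and 1141.0 in the wild-type oviducts. The log2 difference was 0.14 ± 0.14 (SE, adjusted p = 0.68 by limma), and the ranges overlapped. Counts per gene do not separate the D1693N transcript from the normal one, so this does not check the genotype labels.

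The genes of the miRNA pathway differed by small amounts. Of 26 measured, Dicer1 among them, 8 were higher without overlap and 3 lower, against 16.3% and 15.7% of all genes. In each direction 1 had an unadjusted p under 0.05, and the median log2 difference was 0.11 against 0.014 over all genes. Drosha, the nuclear RNase III that cuts the primary transcript, held 1001.3, 989.0 and 976.1 against 805.7 and 914.4 normalized counts. Zcchc11, listed here under the older symbol of a terminal uridyltransferase that tails let-7 precursors, held 991.2, 940.3 and 992.1 against 873.3 and 715.6. Both genes were without overlap at log2 differences of 0.20 ± 0.09 and 0.29 ± 0.11. Dgcr8, the partner of Drosha, and Ago2, the slicing Argonaute, overlapped between genotypes. Lin28b, the let-7 inhibitor of embryonic tissue, had no read in any oviduct, and Lin28a had 0 in the heterozygous and 1.6 and 1.1 in the wild-type libraries, under the floor.

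A transporter, secreted proteins and enzymes led the genes that stood lower in the heterozygous oviducts. The 12 leading genes in each direction were ranked by p among genes without overlap, with a log2 difference of at least 1 in size and a mean of at least 20 normalized counts in the higher genotype. There were 138 such genes lower and 177 higher. The 12 lower ones were Slc6a2, Wfdc18, Lgals1, Alpl, Adh1, Gm16559, Dcpp2, Col25a1, Fkbp11, 3110035E14Rik, Prom1 and Spdef.

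Slc6a2, the norepinephrine transporter (chromosome 8, 92960079 to 93001667, plus strand), held 59.2, 60.6 and 46.8 normalized counts in the heterozygous oviducts and 831.6 and 612.9 in the wild-type oviducts. Its log2 difference was -3.29 ± 0.19 (adjusted p = 0.0732, between 0.00777 and 0.471 over the alternatives). The heterozygous values lay close together and far below both wild-type values.

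Wfdc18, a small secreted protein with a WAP-type disulfide core (chromosome 11, 83709015 to 83711348), held 121.7, 209.6 and 188.1 against 1882.6 and 2090.0. The log2 difference was -3.40 ± 0.22 (adjusted p = 0.0750, between 0.00605 and 0.471 over the alternatives). It was called in 4 of the other fits above, and Slc6a2 and Ighg3 were each called in 3.

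Alpl, the tissue-nonspecific alkaline phosphatase, held 147.3, 134.0 and 115.4 against 514.9 and 784.9 normalized counts. Lgals1, a secreted galectin of stroma and muscle, held 1681.1, 1885.1 and 1758.2 against 3879.1 and 3735.6. These are differences of -2.11 ± 0.21 and -1.09 ± 0.09 on the log2 scale. Spdef, an ETS family factor of secretory epithelium, held 233.3, 210.4 and 285.6 against 578.5 and 586.1. Prom1, a protein of apical membrane protrusions, held 733.4, 914.9 and 911.5 against 1737.1 and 1829.9. In each of these genes the genotypes stood apart, with the wild-type libraries high.

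Adh1, an alcohol dehydrogenase that also oxidizes retinol (chromosome 3, 138260991 to 138290698, plus strand), held 826.0, 1060.8 and 976.1 against 2386.4 and 2210.6. The leading gene Gm16559 is annotated antisense to it (138281408 to 138307022, minus strand) and held 159.6, 199.9 and 215.9 against 530.6 and 545.9. The strand setting of the counting is not given in the sources used here, so reads of these overlapping genes cannot be told apart. Col25a1, a transmembrane collagen, and Fkbp11, a prolyl isomerase of the endoplasmic reticulum, were lower by -2.11 ± 0.24 and -1.40 ± 0.16.

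The Dcpp genes, which encode demilune cell and parotid proteins secreted by salivary gland and oviduct, included the lowest log2 differences. Dcpp3 held 17.9, 49.4 and 10 normalized counts in the heterozygous oviducts and 1544.6 and 429.8 in the wild-type oviducts, a log2 difference of -4.36 ± 0.63, the lowest of the 19435 genes. Dcpp2 held 0.0, 2.2 and 0.0 against 183.9 and 77.0. Dcpp1 held 7.8, 5.2 and 2.0 against 167.4 and 43.5. The heterozygous levels of Dcpp2 are at or under the floor of 3 reads, and the wild-type libraries themselves differed several-fold in all of these genes. Dcpp1 and Dcpp3 were chosen after their values were seen.

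The Dcpp genes are near copies that lie side by side on chromosome 17, and the annotated Dcpp2 spans Dcpp1, so how reads were shared among them is uncertain. Their promoters are shown because the genes stood together in these libraries and differ by few bases. The 80 bases upstream of each RefSeq start (GRCm38.p6, plus strand) are given 5′ to 3′, with the TATAA box in capitals.
Dcpp1, chr17:23880796-23880875: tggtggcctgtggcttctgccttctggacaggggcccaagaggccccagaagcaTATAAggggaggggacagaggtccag
Dcpp2, chr17:23898642-23898721: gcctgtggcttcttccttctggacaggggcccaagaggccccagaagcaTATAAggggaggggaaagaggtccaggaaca
Dcpp3, chr17:23917378-23917457: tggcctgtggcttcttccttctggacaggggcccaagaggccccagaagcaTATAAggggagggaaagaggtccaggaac
Over 250 upstream bases the pairs were 97.1% to 98.0% identical. The letters TATAA stand between 45 and 16 bases upstream of the start in 4.67% of 27025 genes of the RefSeq promoter table.

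Other secreted and membrane proteins stood low beside them, chosen after their values were seen. Klk1b21, a glandular kallikrein, held 61.4, 41.2 and 38.8 against 437.0 and 151.8 normalized counts. Of 7 measured Klk1b kallikreins, near copies in 1 cluster on chromosome 7, 5 were lower without overlap and 0 higher, with a median of -1.24. Aqp8, a water channel, held 24.6, 17.2 and 5.0 against 132.1 and 313.7, and Ghrh, the growth hormone releasing hormone, 10, 34.4 and 25.9 against 172.9 and 126.2. BC048546, a very abundant transcript, held 9409.9, 12718.1 and 9478.8 against 51071.8 and 26812.6.

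Among the higher genes, receptors and secreted factors led. The 12 were Cp, Il18r1, Cntfr, Il17rb, Ighg3, Ets1, Pla2g5, Wnt7a, Tmem132c, Hif3a, Lrp4 and Cxcr6. Cp, ceruloplasmin, the copper-carrying ferroxidase (chromosome 3, 19957054 to 20009145, plus strand), held 2050.5, 2010.1 and 2150.3 in the heterozygous oviducts and 830.1 and 906.6 in the wild-type oviducts. The log2 difference was 1.23 ± 0.09 (adjusted p = 0.0799, between 0.0297 and 1 over the alternatives). Its values were tight within each genotype.

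Il17rb, a receptor of the interleukin 17 family, held 838.3, 1201.6 and 1014.0 against 235.0 and 300.3. Il18r1, the receptor of interleukin 18, held 302.5, 352.6 and 315.4 against 105.3 and 89.3. Cntfr, the receptor of ciliary neurotrophic factor, held 360.5, 363.8 and 376.1 against 161.9 and 165.2. The differences were 1.84 ± 0.18, 1.55 ± 0.14 and 1.07 ± 0.10 on the log2 scale.

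Pla2g5, a secreted phospholipase, held 523.5, 426.7 and 378.1 against 81.7 and 127.3. Wnt7a, an epithelial Wnt ligand needed for Müllerian duct patterning, held 273.5, 318.9 and 235.8 against 100.6 and 87.1. Lrp4, a receptor that modulates Wnt signaling, held 590.5, 625.9 and 751.3 against 275.9 and 195.4. Hif3a, a member of the hypoxia-inducible factor family, held 159.6, 207.4 and 179.1 against 40.1 and 58.1. The 24 leading genes kept their sign in every alternative fit that tested them, as the choice of genes without overlap largely fixes.

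**Figure D1:**
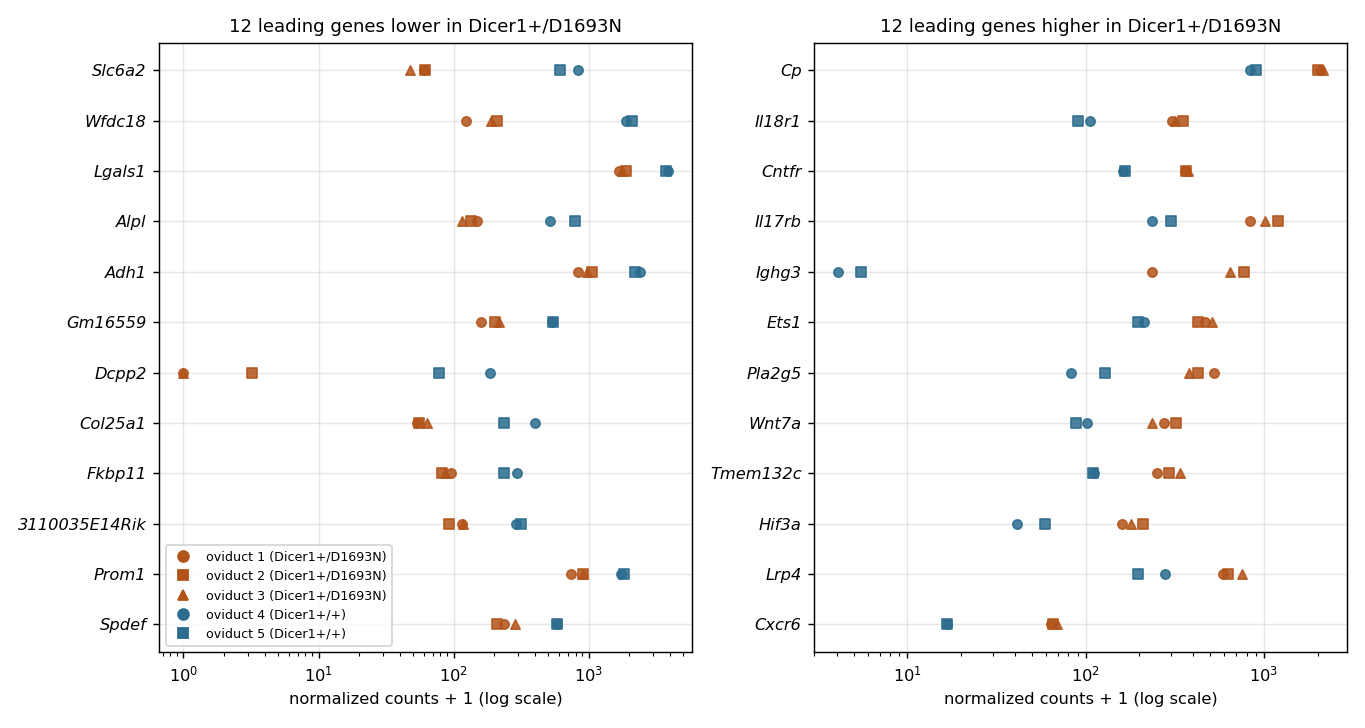
Normalized counts plus 1 (log axis) of the 12 leading genes lower (left) and the 12 leading genes higher (right) in Dicer1+/D1693N oviducts, ranked by p from the top. Each point is 1 library. By the choice of the genes, all 3 orange points lie on 1 side of both blue points, and the gap is widest for Slc6a2, Wfdc18, Dcpp2 and Ighg3.

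The respiratory chain had the highest share of members on 1 side of the 44 gene lists. It passes electrons through complexes I to IV in the mitochondrial inner membrane, and complex V makes ATP. Of 74 measured nuclear-encoded subunits, 68 were lower without overlap and 0 higher, against 15.7% and 16.3% of all genes, and 64 were lower at an unadjusted p under 0.05, against 7.37%. None passed the adjusted test, and the median log2 difference was -0.50. With each oviduct left out in turn, 47 (without oviduct 5) to 65 (without oviduct 4) were lower at that p.

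All 5 complexes showed it. Of 36 complex I subunits, 33 were lower without overlap (median -0.46). In complex II it was 3 of 4 (-0.50), in complex III 8 of 9 (-0.58), in complex IV 10 of 10 (-0.70) and in complex V 14 of 15 (-0.50). Cox7c, a small subunit of cytochrome c oxidase, held 610.6, 643.1 and 695.5 against 1290.7 and 1141.0, a difference of -0.88 ± 0.10 (adjusted p = 0.129). Ndufa8, an accessory subunit of complex I, held 298.0, 303.2 and 304.5 against 516.4 and 572.7. Atp5k of complex V held 125.0, 166.9 and 170.2 against 352.9 and 405.3, and its -1.20 was the lowest of the list. The 6 members with overlap were Ndufa10, Ndufb4, Ndufs1, Sdha, Cyc1 and Atp5l.

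The subunits encoded by the mitochondrial genome did not stand low. Of 8 such genes measured, 0 were lower and 1 higher without overlap, with a median of 0.20. mt-Nd4, a complex I core subunit, held 24483.7, 20204.6 and 15083.9 against 15470.7 and 16610.5, so the genotypes overlapped.

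Ribosomal proteins of the cytosol stood low too, by smaller amounts. Of 79 measured, 55 were lower without overlap and 0 higher, and the median was -0.27. Rpl41, the smallest ribosomal protein, held 3967.1, 4859.5 and 4680.7 against 8318.6 and 7399.8, and Rps2 of the small subunit 3707.0, 3993.3 and 4426.0 against 6653.0 and 5910.5. Rpl26 and Rps3a1 stood apart in oviduct 5, with 1049.5 and 2569.0 there against 3305.2 to 4052.8 and 6175.3 to 6814.1 in the other oviducts. The count at an unadjusted p under 0.05 was 33, and 11 without oviduct 4. Under quantile normalization the median was -0.16. Many of these genes have processed pseudogenes, so their counts depend on how shared reads were treated.

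**Figure D2:**
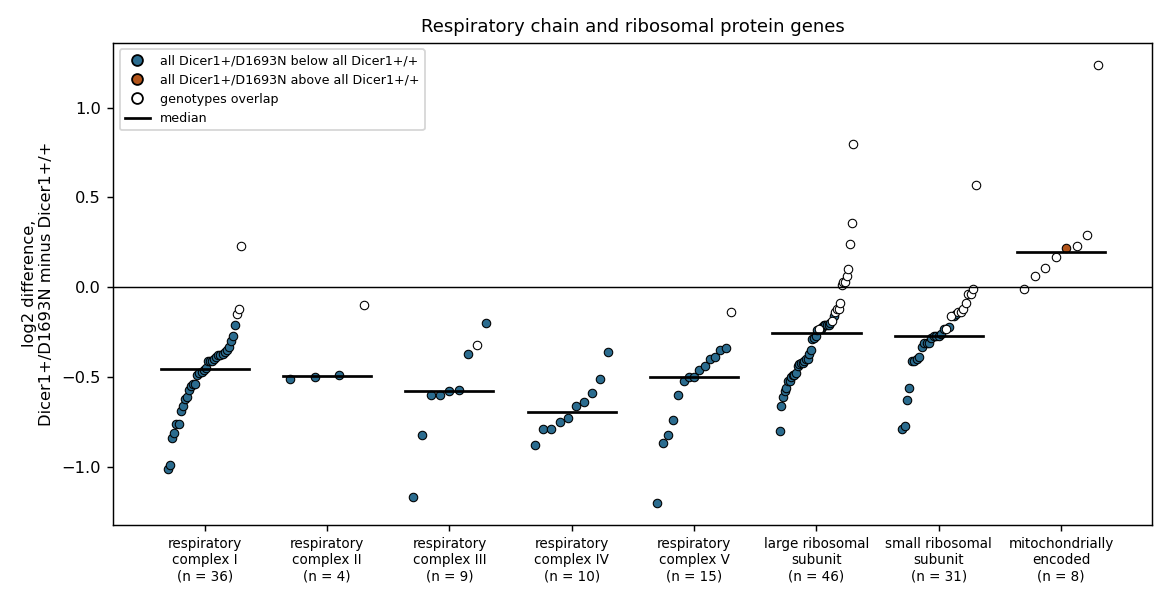
Log2 difference, Dicer1+/D1693N minus Dicer1+/+ oviduct, of each respiratory chain subunit by complex, each ribosomal protein of the large and small subunit, and the genes encoded in mitochondria. Each point is 1 gene and bars are medians. Nearly all nuclear-encoded respiratory subunits lie below 0 without overlap (blue), with medians from -0.46 to -0.70, while the mitochondrially encoded genes have a median of 0.20.

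Transcript length moved with these results. Over 16411 genes with at least 10 normalized counts and an annotated transcript, genes under 1000 bases were lower without overlap in 30.8% and higher in 10.9%. Genes of 8000 bases and over were lower in 5.63% and higher in 32.2%, and the medians ran from -0.11 to 0.13. The median transcript of the respiratory chain list has 908 bases and that of the ribosomal list 914, against 2957 over all genes. Genes under 1000 bases outside those lists were lower in 27.1% and had a median of -0.08, against -0.50 for the respiratory chain. The part of length in the result was not tested further. GC content showed a weaker trend, with medians from 0.11 under 42% to -0.05 at 57% and over.

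**Figure D3:**
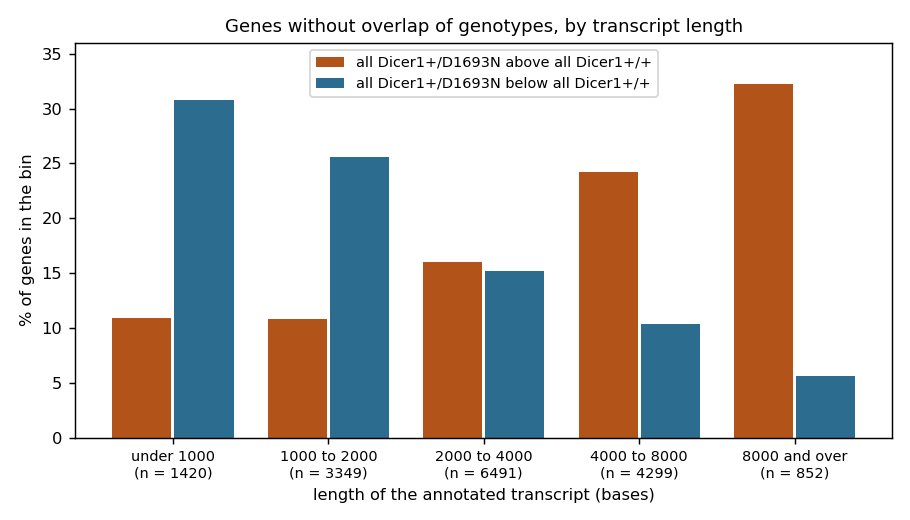
Share of genes (%) whose 3 Dicer1+/D1693N values all lie above (orange) or all below (blue) both Dicer1+/+ values, in bins of the length of the annotated transcript in bases. The share above rises with length from 10.9% to 32.2%, and the share below goes from 30.8% to 5.63%.

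Promoters of respiratory chain genes are shown because many such genes carry an ETS-type motif near the start. The letters CCGGAAG, on either strand, lie within 250 bases upstream of the start in 12 of 61 respiratory chain genes with a RefSeq promoter (19.7%) and in 7.83% of all 27025. The match is a description of the letters, not of a bound site. Sequences are upstream of the RefSeq start (GRCm38.p6, minus strand), 5′ to 3′ in the direction of the gene, with the motif or its reverse complement in capitals.
Cox6a1, chr5:115348959-115348991: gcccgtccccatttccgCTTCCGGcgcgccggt
Uqcrh, chr4:116075071-116075097: acgaggagtatgccgcaCTTCCGGcca
Uqcr11, chr10:80406865-80406904: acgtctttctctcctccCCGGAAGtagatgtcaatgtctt
Cox6a1 of complex IV held 1345.1, 1197.8 and 1187.1 against 2102.6 and 2049.8 normalized counts. Uqcrh and Uqcr11 of complex III held 838.3, 923.8 and 901.5 against 1424.3 and 1282.8, and 286.9, 356.4 and 490.6 against 832.4 and 885.3.

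Glycolysis stood low beside respiration. Of 32 hypoxia and glycolysis genes, 16 were lower and 1 higher without overlap, with a median of -0.22, and 12 were lower at an unadjusted p under 0.05 (10 to 13 with each oviduct left out). The lower members were Gpi1, Pfkl, Aldoa, Aldoc, Tpi1, Gapdh, Pgk1, Pgam1, Eno1, Pkm and Ldha, enzymes of glucose breakdown, and Vegfa, Bnip3, Egln1, Ddit4 and P4ha1, known as hypoxia targets. Ldha, lactate dehydrogenase A, held 1839.6, 2165.8 and 2078.6 against 3975.0 and 4107.4 (-0.99 ± 0.10, adjusted p = 0.129). Pgk1, phosphoglycerate kinase, held 1201.1, 1326.6 and 1380.1 against 2782.6 and 2180.4. Tpi1, triosephosphate isomerase, held 2266.0, 2253.4 and 2317.5 against 3589.0 and 3120.5. Car9, Egln3, Adm and Ankrd37, also hypoxia targets, overlapped between genotypes.

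Heat shock and chaperone genes stood low in part. Of 34, 11 were lower and 1 higher without overlap, with a median of -0.21. The lower ones were Hspa1a, Hsp90ab1, Hspe1, Dnaja1, Ddit3 and Atf4, and, of the endoplasmic reticulum, Dnajb11, Serpinh1, Calr, Sdf2l1 and Manf. Hspa5, Hsp90b1, Pdia4, Pdia6, Hyou1 and Creld2, also of the endoplasmic reticulum, overlapped between genotypes. Serpinh1, the collagen chaperone, held 2761.6, 2692.9 and 2291.6 against 4528.3 and 4040.4. Sdf2l1, of the endoplasmic reticulum, held 331.5, 472.4 and 415.9 against 1216.0 and 602.9.

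Lymphocyte genes stood high in the heterozygous oviducts. Of 24 B and plasma cell genes, 13 were higher and 1 lower without overlap, with a median of 1.76, the highest of the 44 lists. At an unadjusted p under 0.05, 12 were higher, against 7.32% of all genes, but only 2 without oviduct 4. In bulk tissue, a difference in the number of cells of a type and a difference in RNA per cell cannot be told apart.

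Ighg3, an immunoglobulin heavy chain constant gene (chromosome 12, 113356224 to 113361232), held 233.3, 770.4 and 640.8 normalized counts in the heterozygous oviducts and 3.1 and 4.5 in the wild-type oviducts. Its log2 difference was 4.73 ± 0.50 (adjusted p = 0.129, between 0.0212 and 0.471 over the alternatives). The wild-type values are close to the floor, so the size of the difference is uncertain. Ighm, the heavy chain of IgM, held 2277.1, 11098.0 and 21364.6 against 433.1 and 1350.9, and Ighg2c 655.2, 634.1 and 1154.3 against 11.8 and 87.1. Igha, the heavy chain of mucosal IgA, did not follow: it held 457.7, 411.0 and 588.1 against 234.2 and 1662.4. Among the heterozygous libraries, Ighg3 and Ighm were both lowest in oviduct 1.

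A chain of the B cell receptor complex went with the immunoglobulins. Cd79a, which carries its signal into the cell, held 39.1, 123.5 and 225.9 normalized counts against 3.1 and 25.7. Of 77 Igkv light chain segments, 19 were higher and 0 lower without overlap (median 0.97), and of 77 Ighv heavy chain segments 12 and 0 (median 0.63). The Ighv count is no higher a share than the 16.3% of all genes. Igkv3-2 held 280.2, 1551.2 and 2890.6 against 0.0 and 25.7, and its 5.67 ± 1.08 was the highest log2 difference of the 19435 genes. V segments are similar in sequence, and single clones can dominate them, so each segment's count is uncertain. Of the other members of the B and plasma cell list, Pax5, Igj, Mzb1, Ighg1, Ighg2b, Iglc2, Igha, Xbp1, Sdc1 and Derl3 overlapped between genotypes, and Blnk was lower. Mzb1, a plasma cell chaperone, held 61.4, 134.8 and 228.9 against 54.2 and 74.8.

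T cell genes showed a smaller difference in the same order of libraries. Of 26 T and NK cell genes, 13 were higher and 0 lower without overlap, with a median of 0.79. Il7r, the interleukin 7 receptor, held 94.9, 115.3 and 138.3 against 34.6 and 42.4, and Cd3e, a chain of the T cell receptor complex, 23.4, 48.7 and 52.7 against 6.3 and 7.8. The T cell genes Cd3d, Cd4 and Cd8a overlapped between genotypes. Cd3d held 7.8, 31.4 and 28.9 against 4.7 and 14.5, and Cd4 17.9, 74.1 and 102.5 against 17.3 and 26.8. Cd8a held 5.6, 26.2 and 40.8 against 3.9 and 6.7. The NK and cytotoxic genes Ncr1, Prf1, Gzma, Gzmb and Klrd1 overlapped too, and none exceeded 24 normalized counts. The count at an unadjusted p under 0.05 was 10, but 3 without oviduct 4. Cxcr6 of the leading genes, a chemokine receptor of T cells, held 62.5, 64.4 and 67.7 against 15.7 and 15.6.

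Antigen presentation followed. Of 16 dendritic cell and MHC class II genes, 7 were higher and 0 lower without overlap, with a median of 0.43. Cd74, the invariant chain, held 4908.1, 6418.2 and 7078.8 against 3614.2 and 3743.5. Of 20 MHC class I genes 7 were higher and 1 lower. Of 24 macrophage genes 4 were higher and 1 lower (median 0.14), and of 16 neutrophil genes 1 and 1. The macrophage and neutrophil counts lay near or under the shares of all genes, 16.3% higher and 15.7% lower. The summed normalized counts of the B and plasma list were 10536, 28439 and 46178 in the heterozygous and 6694 and 10025 in the wild-type oviducts, and those of the T and NK list 549, 904 and 1257 against 314 and 428. In both sums oviduct 3 was highest and oviduct 4 lowest.

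Some repressors and output factors of the circadian clock stood high. The circadian clock runs on activators, among them Clock and Arntl, and on repressors and output factors that they drive through E-boxes. Of 19 clock genes, 8 were higher and 0 lower without overlap, and the same number were higher at an unadjusted p under 0.05 (6 to 12 with each oviduct left out). The median was 0.43. Nr1d1, the repressor REV-ERB alpha, held 1907.7, 2049.8 and 1805.0 against 932.2 and 1076.3 (0.92 ± 0.11, adjusted p = 0.129). Dbp, an output activator, held 947.7, 1290.7 and 1142.3 against 411.1 and 600.6. Hlf, of the same family, held 310.3, 360.1 and 270.7 against 178.4 and 139.6. The activators Arntl, Clock and Npas2 overlapped between genotypes, and so did the repressors Per1, Per2 and Ciart.

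The wild-type libraries differed from each other in the Period genes. Per3 held 648.5, 729.9 and 754.2 against 250.7 and 492.4 and was higher without overlap. Per2, a core repressor, held 427.5, 455.2 and 607.0 in the heterozygous oviducts and 180.0 and 713.4 in the wild-type oviducts, which lay on both sides. Per1 held 437.8 in oviduct 4 and 963.5 in oviduct 5. Clock genes vary with the hour of dissection, which is not given in the sources used here, so hour and genotype cannot be told apart.

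The E-box letters CACGTG, which read the same on both strands, lie within 250 bases upstream of the start in 5 of 16 clock genes with a RefSeq promoter and in 6.86% of all genes. Windows with the letters in capitals are shown for members that carry them (GRCm38.p6, 5′ to 3′ in the direction of the gene).
Tef, chr15:81802529-81802568, plus strand: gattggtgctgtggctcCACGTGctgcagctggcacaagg
Ciart, chr3:95882322-95882361, minus strand: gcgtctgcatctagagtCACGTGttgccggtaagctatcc
Bhlhe41, chr6:145865551-145865590, minus strand: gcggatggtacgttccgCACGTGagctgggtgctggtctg
Tef, an output activator, held 2245.9, 2528.2 and 2659.8 against 1062.7 and 2016.3. Bhlhe41, a repressor, held 267.9, 319.7 and 441.8 against 144.6 and 233.3. Both were without overlap. Ciart, also a repressor, overlapped, with 33.5, 51.7 and 56.7 against 13.4 and 53.6.

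Glucocorticoid targets stood high in part. Of 16 genes, 9 were higher and 2 lower without overlap, with a median of 0.45. Zbtb16, a zinc finger factor strongly induced by glucocorticoids and progestins, held 277.9, 430.5 and 323.4 against 98.3 and 112.8 (1.51 ± 0.20, adjusted p = 0.129). Tsc22d3, the glucocorticoid-induced leucine zipper protein, held 945.5, 1125.2 and 1045.8 against 418.2 and 732.4. Mt2, a metallothionein, held 1442.2, 1483.1 and 1553.3 against 1139.7 and 931.1. Ddit4, of the same list, stood the other way, at 289.1, 428.2 and 391.1 against 518.0 and 865.2.

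**Figure D4:**
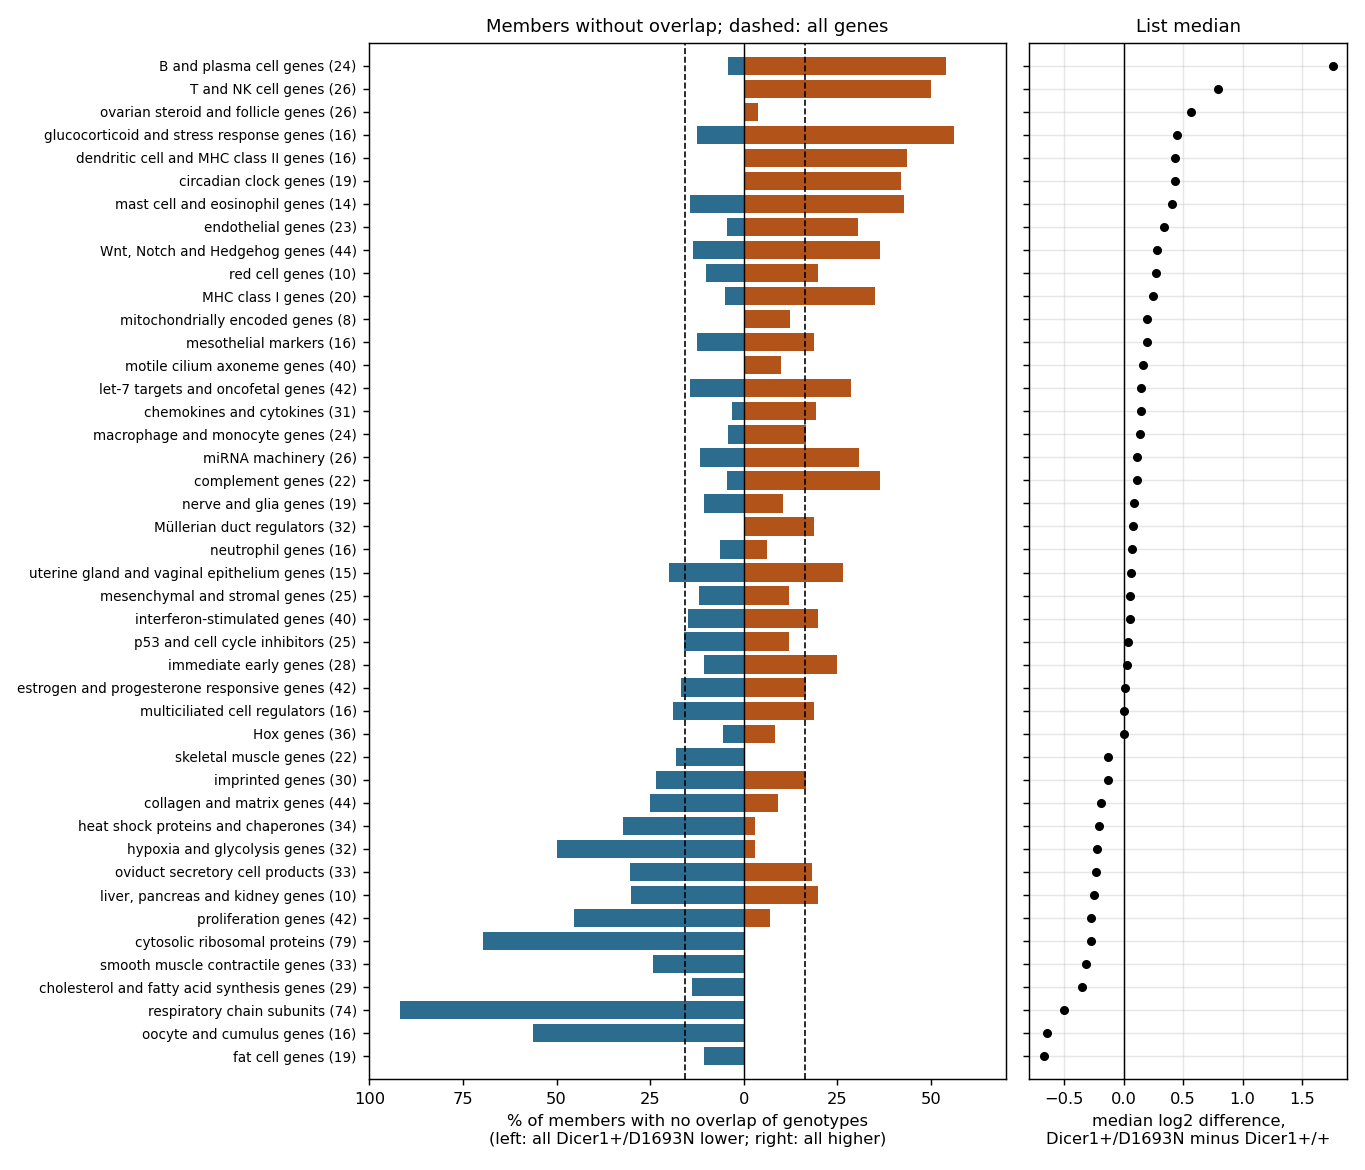
Left, share (%) of measured members (number in brackets) of 44 gene lists whose genotypes do not overlap, to the right where all Dicer1+/D1693N values are higher and to the left where all are lower. Dashed lines mark the shares over all genes, 16.3% and 15.7%. Right, median log2 difference of each list. The respiratory chain, ribosomal, oocyte and hypoxia and glycolysis lists reach farthest to the left, and the glucocorticoid, B and plasma cell and T and NK cell lists farthest to the right.

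Developmental signaling genes leaned higher. Of 44 Wnt, Notch and Hedgehog genes, 16 were higher and 6 lower without overlap, with a median of 0.28. Of the 17 Wnt ligand genes measured, 4 were higher and 1 lower, and their median of 0.19 was -0.01 without oviduct 5. Wnt4 held 766.9, 759.9 and 587.1 against 455.9 and 385.2, and Wnt2b 708.8, 802.6 and 795.0 against 521.9 and 438.8. Notum and Axin2, feedback targets of the pathway, held 317.0, 289.7 and 284.6 against 103.8 and 174.2, and 589.4, 647.6 and 597.0 against 508.6 and 490.1. Wnt5b and the Notch target Hey1 stood lower without overlap. Sfrp4, a secreted Wnt inhibitor, held 10759.5 in oviduct 1 and 145.1 to 335.6 elsewhere.

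Epithelial genes went in both directions. Of 33 genes of secretory cells, 6 were higher and 10 lower without overlap, with a median of -0.23 (0.20 without oviduct 4). Pax8, the lineage factor of Müllerian epithelium, held 1559.4, 1515.3 and 1587.1 against 1161.8 and 1114.2, and Cldn4, a tight junction protein, 190.9, 315.9 and 294.5 against 103.8 and 72.6. Elf3, an epithelial ETS factor, held 995.7, 958.3 and 987.1 against 1417.2 and 1987.3, and Upk1a, a uroplakin, 1255.8, 1123.7 and 936.3 against 3217.2 and 1743.9. Krt8 and Krt19, keratins of simple epithelium, both stood lower at -0.44.

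Ciliary genes mostly overlapped. Of 40 motile cilium axoneme genes, 4 were higher and 0 lower without overlap with a median of 0.16. That median was 0.45 without oviduct 5 and -0.12 without oviduct 4, so the sign differed between the wild-type libraries. Dnah5, a dynein heavy chain of the outer arm, held 6225.3, 5590.9 and 8342.5 against 5486.5 and 8413.6.

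Matrix and muscle genes stood low in part. Of 44 collagen and matrix genes, 11 were lower and 4 higher without overlap, with a median of -0.19 (0.01 without oviduct 4). Col1a1, the main fibrillar collagen chain, held 3822.0, 3818.9 and 2432.9 against 9495.3 and 6208.6. Fbln2 held 787.0, 546.5 and 594.0 against 1384.2 and 2081.1, while its relative Fbln1 held 1321.6, 1227.0 and 1149.3 against 878.0 and 637.5. Of 33 smooth muscle genes, 8 were lower and 0 higher (median -0.32, and 0.03 without oviduct 4). Myh11, smooth muscle myosin, held 18063.0, 11090.5 and 8451.9 against 16696.9 and 8304.2, so both genotypes varied 2-fold.

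Cell cycle genes stood low in part. Of 42 proliferation genes, 19 were lower and 3 higher without overlap, with a median of -0.27, and 5 were lower at an unadjusted p under 0.05. Cdk1, the mitotic kinase, held 25.7, 27.0 and 20.9 against 63.7 and 60.3. Mki67, a marker of cycling cells, overlapped, at 82.6, 127.3 and 170.2 against 156.4 and 109.4.

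Genes of neighbouring tissues set some libraries apart. Ovarian steroid and follicle genes summed to 50789 normalized counts in oviduct 1 and to 11058, 3690, 8022 and 6182 in oviducts 2 to 5. Cyp11a1, the first enzyme of steroid synthesis, held 13134.8 in oviduct 1 and 23.9 in oviduct 3. Fat cell genes summed to 71403 in oviduct 5 and to 8948, 25862, 18628 and 11975 in oviducts 1 to 4. Their median was -0.67 with all libraries and 0.32 without oviduct 5. Adipoq, the fat cell hormone adiponectin, held 224.4, 896.9 and 628.9 against 387.5 and 1703.7. The part of these tissues in the other results was not tested. Without oviduct 1 the median of the respiratory chain was -0.49, of the clock list 0.51 and of the B and plasma cell list 2.33, and without oviduct 5 they were -0.47, 0.74 and 1.92.

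Oocyte and cumulus genes stood low in the heterozygous oviducts. Of 16, 9 were lower and 0 higher without overlap, with a median of -0.64, and their sums were 90, 180 and 91 against 302 and 527. H1foo, the oocyte linker histone, held 1.1, 5.2 and 1.0 against 26.7 and 19, and Ptgs2, the inducible prostaglandin synthase of cumulus cells, 30.1, 48.7 and 25.9 against 102.2 and 261.2. Levels of this list were low. Whether eggs were present in an oviduct is not given in the sources used here.

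**Figure D5:**
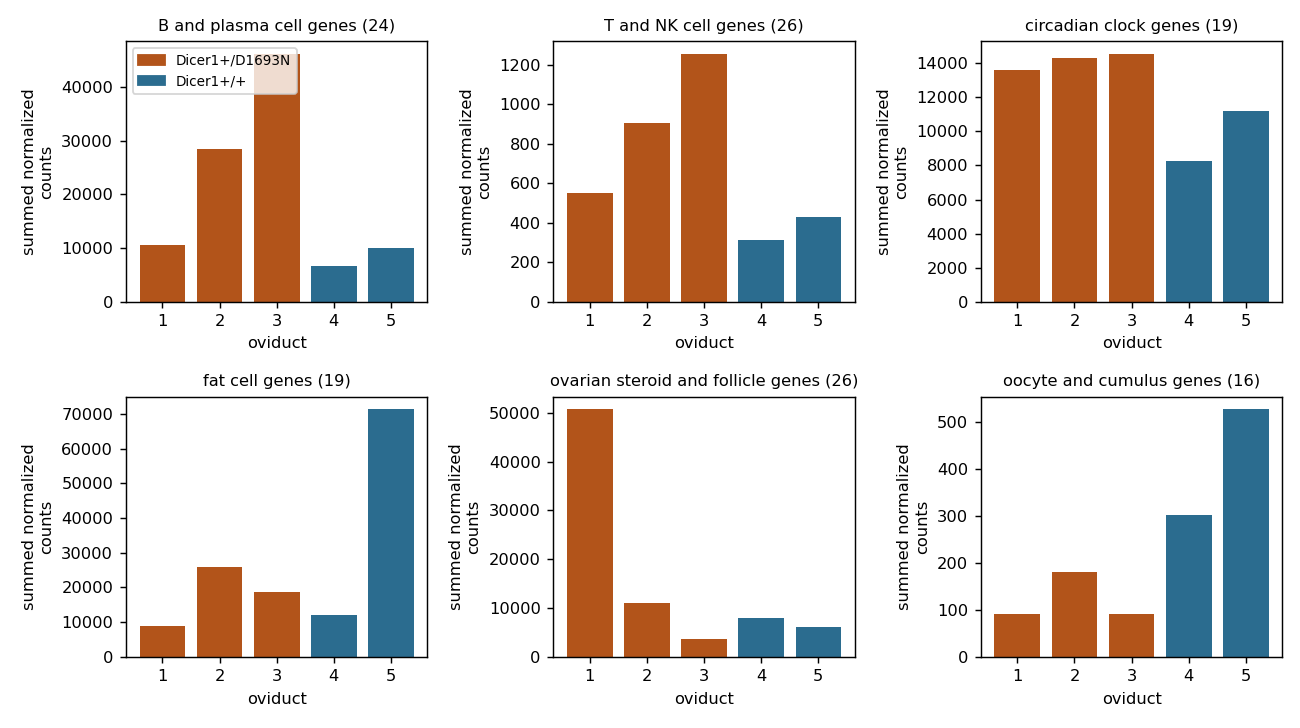
Summed normalized counts of 6 gene lists in each oviduct, from 0 (number of measured members in brackets; orange Dicer1+/D1693N, blue Dicer1+/+). Lymphocyte sums are highest in oviduct 3, clock sums separate the genotypes, the fat cell sum stands out in oviduct 5 and the ovarian sum in oviduct 1.

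Known let-7 targets and oncofetal genes were next described, since D1693N acts on 5p miRNAs and let-7 is a 5p family. Of 42 measured, 12 were higher and 6 lower without overlap, with a median of 0.15. Over all genes the shares were 16.3% and 15.7%, and the part of transcript length in this list was not tested. Cdk6, a G1 kinase, held 676.4, 624.4 and 720.4 against 392.2 and 415.3 (0.71 ± 0.10, adjusted p = 0.129), and Fzd3, a Wnt receptor, 720.0, 703.0 and 813.0 against 463.0 and 381.8. Hmga2, the chromatin protein most often used as a let-7 readout, held 116.1, 91.3 and 59.7 against 95.1 and 65.9 and overlapped. Igf2, an imprinted growth factor, held 264.5, 159.5 and 165.2 against 106.1 and 106.1.

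Seed matches in 3′ UTRs gave differences near 0. Mature sequences are RefSeq's, 5′ to 3′, with the seed (bases 2 to 8) in capitals. The first pair are 5p strands and the second pair 3p strands.
let-7a-5p: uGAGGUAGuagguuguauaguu
miR-181a-5p: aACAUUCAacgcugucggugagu
miR-200b-3p: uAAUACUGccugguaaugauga
miR-29a-3p: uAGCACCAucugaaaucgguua
Of 14594 genes with a 3′ UTR of at least 50 bases, 1705 hold the 7-base match to the let-7a-5p seed. Their median log2 difference was 0.061, against 0.008 for genes without it. Over 32 seeds the raw difference ran from 0.021 to 0.072 for 5p strands and from 0.011 to 0.065 for 3p strands. A least-squares fit with UTR length and GC content gives differences of means, so its values are not directly comparable with the differences of medians above. In that fit let-7a-5p stood at 0.013, miR-181a-5p at 0.022, miR-200b-3p at 0.004 and miR-29a-3p at -0.025. The median over 17 5p seeds was 0.001 (-0.028 to 0.033) and over 15 3p seeds -0.012 (-0.025 to 0.010). Values above 0 came from 10 of the 5p and 6 of the 3p seeds. These are descriptions across genes, without a test. The miRNAs were chosen by name, and their levels in these oviducts were not measured here.

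Genes near Dicer1 were looked at because a targeted chromosome carries flanking sequence of the strain in which it was made. Within 10 Mb of Dicer1 lay 226 measured genes, of which 21.7% were without overlap, against 32.0% of all genes. Without immunoglobulin genes, which lie partly in this window, it was 24% of 171. Serpina3n, a serine protease inhibitor (chromosome 12, 104406729 to 104414329), held 194.2, 194.6 and 233.8 against 435.5 and 407.5 (-0.96 ± 0.13, adjusted p = 0.129). The strain backgrounds are not given in the sources used here.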

How the data were processed

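Messenger RNA of 5 oviducts was compared by genotype, as the labels give it. Per the labels' protocols, mRNA was captured with poly-T beads, and random hexamers primed the first strand. FastQC 0.11.5, STAR 2.5.3a, HTSeq (version not given) and GRCm38 (mm10) are named in the submitters' processing notes, while annotation, strand setting and transformation are not given in the sources used here. The authors deposited log2 values for 19435 genes, with a floor of 3.427 for genes without a read. Inverting a variance-stabilizing transformation gave whole reads for 100.0% of values (tolerance 0.05 reads), from which normalized counts were taken. Log2 differences of the deposited values understate those of genes with few reads. The floor of 3 reads covers counting error only: PCR copies were not marked by molecular identifiers.

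Differences, heterozygous minus wild-type, were tested by limma 3.58.1 in R 4.3.3 (trend in the prior variance, two-sided) on the 5 oviducts, with Benjamini-Hochberg adjustment over all genes and a gene was called where its adjusted p was under 0.05 and its log2 difference at least 1 in size. The procedure was tested on simulated data. Of the symbols, 19180 (98.7%) matched GENCODE M21, the GRCm38 annotation, 627 of them through an older symbol, and 255 did not. Promoters and miRNAs are from RefSeq (GRCm38.p6). Promoter identity was taken with Biopython 1.88.

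The comparison, its 44 gene lists and the genes named were chosen with earlier results of these data known. Named genes were the 12 leading genes per direction, up to 3 members per list by p, a fixed set (among them Dicer1, Hmga2, Foxj1, Ovgp1, Igf2, Mki67, Myh11 and Adipoq) and up to 3 genes near Dicer1. All other genes and the gene families were chosen after their values were seen. Leaving out each oviduct for the counts of list members was added after seeing the data.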

Additional observations from a re-analysis of the deposited data

How the results depend on the processing

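The count of called genes, 0 in each direction by limma on the 5 oviducts, moved under 4 alternatives. It was 1 higher and 3 lower with all 9 libraries in 3 groups, 4 and 4 with only genes of a mean of at least 10 normalized counts, and 1 and 3 by limma-voom on the recovered reads. With each oviduct left out in turn it ran from 0 to 1 in each direction, and the 1 was without oviduct 1. Quantile normalization, a prior without a trend, log2(normalized count + 1) and the adjusted p alone gave 0 and 0. Among named genes, 30 values of 20 genes changed sign, 9 of them without oviduct 4 and 10 without oviduct 5. In 5 of these the value with all libraries was over 1 SE from 0. Without oviduct 5, mt-Nd3 went to -0.20 and Pgr to 0.02, and without oviduct 4, Dicer1 went to -0.02, Ovgp1 to 0.01 and Per1 to -0.12. Over all libraries left out in turn, the log2 change of mt-Nd3 ran from -0.20 to 2.68, the log2 change of Dicer1 from -0.02 to 0.31, the log2 change of Ovgp1 from -0.86 to 0.01, Pgr from -1.14 to 0.02 and Per1 from -0.12 to 0.98. The cause was not tested. Of the list medians, 327 of the recomputed values moved by less than 1 SD of the list's mean over the heterozygous libraries and 69 by more. Depth limits genes under 3.349 normalized counts. No paired analysis was possible because oviducts 1 to 3 and oviducts 4 and 5 share no replicate number.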

Other observations

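Gene families outside the lists, chosen after their values were seen, leaned in a common direction by small amounts. Of 345 Zfp zinc finger genes, 92 were higher and 18 lower without overlap between the genotypes, with a median log2 difference of 0.11, and of 41 Zbtb genes 19 were higher and 1 lower (median 0.14). Of 47 Mrpl genes, which encode the large subunit of the mitochondrial ribosome, 1 was higher and 32 lower (median -0.30). Of 43 Hist genes, 0 were higher and 14 lower (median -0.34). Over all genes, 16.3% were higher and 15.7% lower without overlap. In the length bins above, the shares were 10.9% and 30.8% under 1000 bases, and 24.2% and 10.4% at 4000 to 8000 bases. The part of transcript length in these families was not tested.

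Complement genes included several higher members. Of 22, 8 were higher and 1 lower without overlap. C4b held 1606.3, 2525.2 and 1962.2 normalized counts in the heterozygous oviducts and 1205.8 and 1065.1 in the wild-type oviducts. Interferon-stimulated genes without overlap lay near the shares of all genes (16.3% and 15.7%), with 8 higher and 6 lower of 40. Their median was 0.05. At an unadjusted p under 0.05 by limma, 1 was higher and 6 were lower, against 7.32% and 7.37% of all genes. Bst2, an antiviral membrane protein, held 1081.6, 747.9 and 702.5 against 1638.9 and 1879.0. Hox genes, which pattern the duct along its length, were near 0, with 3 higher and 2 lower of 36 and a median of 0.0.

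Padi2, an enzyme that citrullinates proteins and is induced by estrogen, held 3099.3 normalized counts in oviduct 5 and 197.0 to 351.4 in the others. Pgr, the progesterone receptor, held 2186.0 in oviduct 5 and 919.4 to 1106.2 in the others. Glycam1, a ligand made by high endothelial venules, held 21.2, 217.9 and 145.3 against 0.0 and 16.7.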
